A study of Homo sapiens with 7 samples.

Results

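The genes described here are transcription factors of the melanocyte lineage, chosen by name: MITF and its relatives TFEB, TFE3 and TFEC, the SOX factors SOX10, SOX9 and SOX5, the paired-box factor PAX3, and the AP-2 factors TFAP2A and TFAP2B. Of these 10 members, 7 had a row among the 21305 genes of the table, and all 7 were among the 15420 genes tested. SOX9, TFAP2B and TFEC were not analysed here. RNA-seq was carried out on 501Mel, a human melanoma cell line, that carried a hairpin RNA switched on by doxycycline. The 7 libraries comprised 3 in which the hairpin matched lacZ of bacteria (shlacZ, which served as control), 2 with hairpin sh4 and 2 with hairpin sh8, and all 7 were from doxycycline-induced cells. Both sh4 and sh8 were directed against the long non-coding RNA GRASLND, and the comparisons ask how the level of each factor differed when GRASLND was lowered. The cells were pools selected with puromycin after lentiviral transduction, and not single clones. All groups received doxycycline, so an effect of it that they share does not enter the comparisons between them. No uninduced cells were compared here, so a doxycycline effect that differed by hairpin cannot be told apart from the rest.

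MITF is the basic helix-loop-helix leucine zipper factor that drives pigment genes and survival of melanocytes, and it binds E-box sequences as a dimer with itself or with TFEB, TFE3 or TFEC. SOX10 and PAX3, which specify neural crest derivatives, activate the melanocyte promoter of MITF, and TFAP2A shares many pigment gene enhancers with MITF. TFEB and TFE3 are best known as regulators of lysosome and autophagy genes that are held in the cytoplasm by the kinase mTORC1 when nutrients are plentiful.

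To show the DNA around the starts of factors that differed, promoter windows of 300 bases (250 before and 50 after a start) were taken from RefSeq on GRCh38.p14. The table held entries for 8 of the 10 members, 6 of them with measured values, in 14 windows, and SOX10 and SOX9 had none. Each window was searched on both strands for the E-box CACGTG and its variant CATGTG, the cyclic AMP response element TGACGTCA, the SOX-type sequences ACAAAG and ACAATG, and the AP-2-type sequence GCCNNNGGC, and matches are in capitals. No matches of different sequences overlapped in these windows.
MITF, melanocyte start, chr3:69936342-69936641, plus strand: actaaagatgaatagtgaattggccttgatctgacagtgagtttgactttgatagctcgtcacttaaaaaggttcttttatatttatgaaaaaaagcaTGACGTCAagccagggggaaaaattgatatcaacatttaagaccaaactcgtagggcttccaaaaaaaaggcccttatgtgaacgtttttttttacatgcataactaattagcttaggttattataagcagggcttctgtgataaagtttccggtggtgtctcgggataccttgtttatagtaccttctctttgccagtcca
TFAP2A, chr6:10419610-10419909, minus strand: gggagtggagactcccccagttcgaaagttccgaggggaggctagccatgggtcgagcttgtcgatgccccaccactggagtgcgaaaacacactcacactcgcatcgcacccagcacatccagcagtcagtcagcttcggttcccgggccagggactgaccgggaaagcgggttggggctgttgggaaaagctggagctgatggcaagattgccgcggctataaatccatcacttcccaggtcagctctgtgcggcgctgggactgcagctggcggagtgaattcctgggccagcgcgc
TFEB, chr6:41735011-41735310, minus strand: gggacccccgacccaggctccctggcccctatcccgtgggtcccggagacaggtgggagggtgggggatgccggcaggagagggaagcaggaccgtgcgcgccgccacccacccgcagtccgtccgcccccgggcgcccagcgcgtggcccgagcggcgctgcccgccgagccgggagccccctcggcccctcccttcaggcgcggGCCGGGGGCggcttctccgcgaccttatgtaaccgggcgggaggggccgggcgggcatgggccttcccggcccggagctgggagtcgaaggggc
TFE3, chrX:49043308-49043607, minus strand: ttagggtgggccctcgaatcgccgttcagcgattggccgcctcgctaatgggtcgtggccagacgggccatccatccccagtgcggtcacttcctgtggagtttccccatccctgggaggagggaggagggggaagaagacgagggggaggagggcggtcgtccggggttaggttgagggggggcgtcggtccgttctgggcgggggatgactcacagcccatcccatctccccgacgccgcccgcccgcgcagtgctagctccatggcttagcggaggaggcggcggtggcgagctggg
The MITF window held TGACGTCA from base 99 of the 300, a sequence that 1.85% of all 35116 windows in the table held. TFEB had 3 windows, and the one shown held GCCNNNGGC from base 207, as did 23.2% of all windows at any position. The other TFEB windows held none of the sequences searched for. The windows shown for TFAP2A and TFE3 held none of these letters. Of the other MITF windows, which lie upstream, the farther held ACAATG (10.8% of all windows) and the nearer held ACAAAG (16.1%). The SOX5 window held ACAATG at 2 positions, and a TFEC window held it once. CATGTG (11.1% of all windows) was found in the window of TFAP2B, and CACGTG (7.26%) in none of the 14. A match is a stretch of letters only, and binding was not measured.

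The libraries held 13337317 to 22855232 reads that were counted to genes, which is not the number sequenced. All replicate pairs differed by more than counting noise. The first shlacZ library stood apart from the other shlacZ libraries (mean chi-square per gene of 30.8 and 31.7, against 9.47 between the other pair). The labels do not say whether replicates were separate cultures, so p-values measure only the spread between these samples. GRASLND, the targeted RNA, had normalized counts of 309, 330 and 290 under shlacZ, 175 and 131 under sh4, and 227 and 163 under sh8. It lay below every shlacZ library under either hairpin, and its log2 fold change was -1.02 ± 0.21 (SE, adjusted p = 0.00662) for sh4 and -0.68 ± 0.21 (adjusted p = 0.11, unadjusted p = 0.00774) for sh8. Without the second sh4 library the sh4 difference did not pass (-0.82, adjusted p = 0.0772). All 9 melanocyte markers had a row, and their summed normalized counts were 107842 to 118711 under shlacZ, 37699 to 43439 under sh4 and 77690 to 80945 under sh8. The largest parts of this sum were TYRP1 (mean of 44980 under shlacZ) and PMEL (36657). Under sh4 the means of TYR, S100B and MIA were higher than under shlacZ, and those of the other markers were lower. Of the markers of other cell types, rows were found for 2 of 6 keratinocyte genes, 1 of 6 fibroblast genes (COL1A1, at 5.24 to 16.4), 1 of 6 immune genes (CD68, at 441 to 675) and 0 of 4 endothelial genes.

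To set the factors against each other, the shlacZ level was divided by the length of the canonical transcript in GENCODE release 44 on hg38. MITF (chromosome 3, 69739456 to 69968336, plus strand, 20 annotated transcripts) stood highest at 4164 normalized counts per kb, and its 3 libraries lay between 3610 and 4600. SOX10 (chromosome 22, 37970686 to 37987422, minus strand) followed at 2988 per kb and TFAP2A (chromosome 6, 10393186 to 10419659, minus strand) at 1651 per kb. PAX3 (chromosome 2, 222199887 to 222298998, minus strand) stood at 526 per kb and SOX5 (chromosome 12, 23529504 to 24562544, minus strand) at 240 per kb. TFE3 (chromosome X, 49028726 to 49043410, minus strand) and TFEB (chromosome 6, 41683978 to 41736259, minus strand) stood lowest, at 122 and 90.8 per kb. The libraries of neighbours in this order did not overlap, except for TFE3 (104 to 133) and TFEB (71.8 to 106). Dividing by all annotated exons instead kept the order and separated TFE3 (81.7 to 104) from TFEB (24.9 to 36.8). Under sh4 some neighbours overlapped per kb of canonical transcript, namely SOX10 (1114 to 1529) with TFAP2A (952 to 1148), and SOX5 (203 to 217) with TFE3 (172 to 243). Per kb of all annotated exons SOX5 (127 to 136) and TFE3 (134 to 190) overlapped too. TFEB lay apart from TFE3 under sh4, at 21.1 to 32.9 per kb of canonical transcript. The table sums all transcripts of a gene, so the MITF isoforms and their starts were not measured apart.

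**Figure D1:**
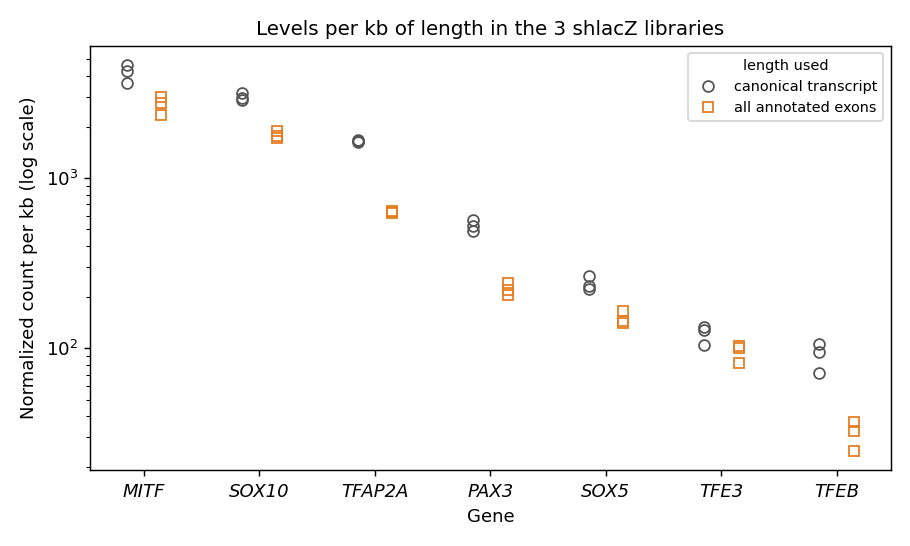
Normalized count per kb (log scale) in each of the 3 shlacZ libraries for the 7 measured factors, divided by the canonical transcript (circles) or by all annotated exons (squares). MITF stands highest, between 3610 and 4600 per kb of canonical transcript, and TFEB lowest, between 71.8 and 106.

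Under sh4, 5 of the 7 factors passed the limma test at an adjusted p under 0.05, where 22.5% of all genes tested did. MITF, SOX10, TFAP2A and TFEB fell, where 11.9% of all genes fell, and TFE3 rose, where 10.5% of all genes rose. SOX10 and TFEB also exceeded an absolute log2 fold change of 1, the study's limit, which 8.16% of all genes did. The median log2 fold change was -0.66 over the 7 factors and -0.01 over all genes. Under sh8, 0 of the 7 passed with limma and 0 with limma-voom, where 2.92% of all genes passed (1.38% higher, 1.54% lower and 1.15% also over the fold limit). An unadjusted p under 0.05 was found for 3 (TFEB, PAX3 and SOX10), as it was for 2858 of the 15420 genes tested. The median over the 7 factors was 0.05 under sh8. The sh4 and sh8 comparisons share the shlacZ libraries. Without the second sh4 library 2 of the 7 factors passed under sh4 (SOX10 and TFEB), and without the first shlacZ library 2 passed under sh8 (PAX3 and TFEB).

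**Figure D2:**
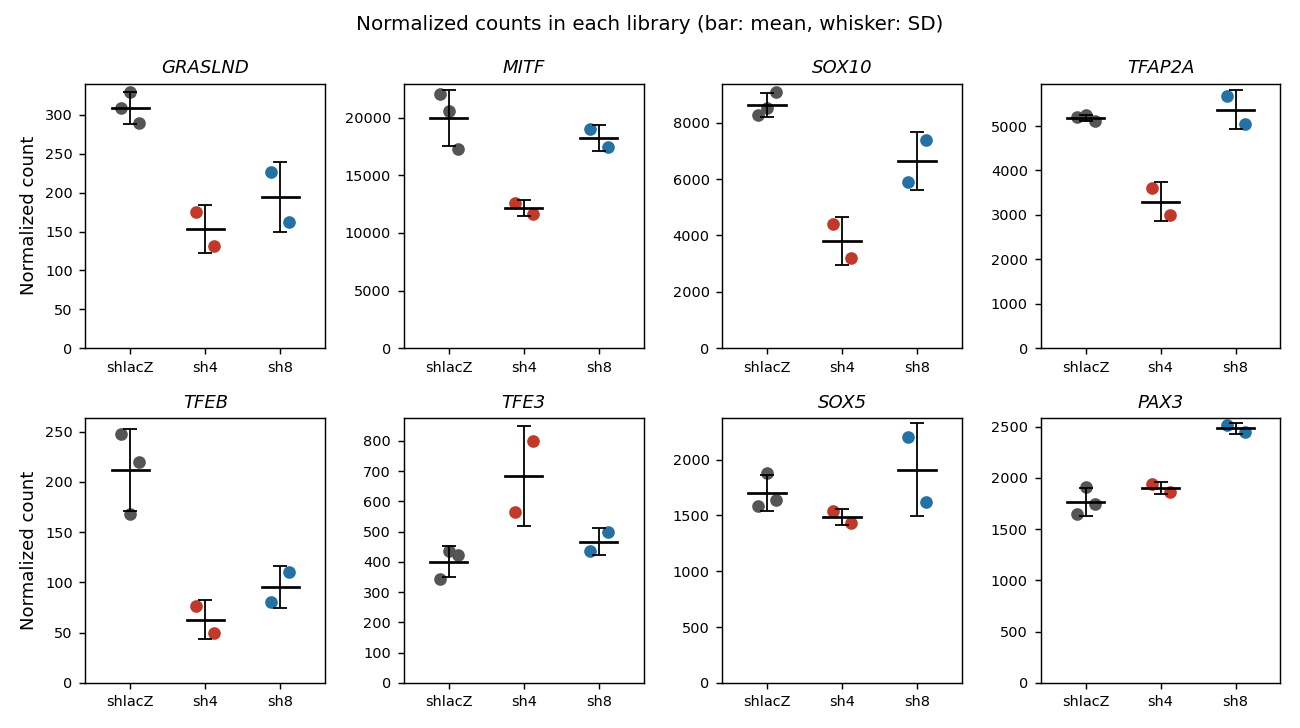
Normalized counts of GRASLND and the 7 measured factors in each library (points) with the group mean (bar) and SD (whisker), for shlacZ (n = 3), sh4 (n = 2) and sh8 (n = 2), each panel on its own linear axis from 0. Both sh4 points lie below all shlacZ and sh8 points for MITF, SOX10, TFAP2A, TFEB and SOX5, and both sh8 points of PAX3 lie above all others.

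MITF, the central factor of the lineage, had normalized counts of 22076, 20552 and 17326 under shlacZ, 12619 and 11635 under sh4, and 19031 and 17418 under sh8. Both sh4 libraries lay below all others, while the sh8 libraries lay within the shlacZ range. MITF was at 60.7% of the shlacZ mean under sh4 (log2 fold change -0.71 ± 0.13 SE, adjusted p = 0.00483) and at 91.2% under sh8 (-0.13, 95% interval -0.43 to 0.17, adjusted p = 0.658). Without the second sh4 library the fall missed the threshold (-0.66, adjusted p = 0.0567).

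TFEB, which activates lysosomal genes, had normalized counts of 248, 168 and 220 under shlacZ, 76.8 and 49.3 under sh4, and 80.4 and 110 under sh8. All 4 knockdown libraries lay below all shlacZ libraries. The sh4 level was 29.8% of the shlacZ mean (log2 fold change -1.75 ± 0.27 SE, adjusted p = 0.00196), the deepest fall among the 7 factors, and the fall passed under every alternative run. The sh8 level was 45.0% of the shlacZ mean (-1.14, 95% interval -1.75 to -0.54) and did not pass (adjusted p = 0.0564), although it did without the first shlacZ library (-1.02, adjusted p = 0.0461). TFE3, the relative with the same lysosomal role, had 344, 437 and 422 normalized counts under shlacZ, 566 and 800 under sh4, and 435 and 499 under sh8. It was the factor that rose, to 1.70 times the shlacZ mean under sh4 (log2 fold change 0.75 ± 0.18 SE, adjusted p = 0.0167), and both sh4 libraries lay above all others. The rise missed the threshold without the second sh4 library (0.50, adjusted p = 0.163), and the sh8 difference was 0.22 (95% interval -0.19 to 0.64).

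SOX10, which maintains melanocyte identity and activates MITF, had normalized counts of 8259, 8523 and 9084 under shlacZ, 4410 and 3213 under sh4, and 5913 and 7381 under sh8. The 3 groups did not overlap, with sh8 between sh4 and shlacZ. SOX10 fell to 44.2% of the shlacZ mean under sh4 (log2 fold change -1.19 ± 0.15 SE, adjusted p = 0.000793), and the fall passed under every alternative run. Under sh8 SOX10 stood at 77.1% of the shlacZ mean (-0.38, 95% interval -0.73 to -0.04, adjusted p = 0.226, unadjusted p = 0.0331). SOX10 lies within POLR2F, which encodes an RNA polymerase subunit on the opposite strand and overlaps all 16737 bases of the gene. POLR2F had 682 to 1047 normalized counts under shlacZ, 644 and 736 under sh4, and 680 and 655 under sh8. The libraries were stranded, but the strand setting used in counting is not given in the sources used here. SOX5, which can modulate SOX10 activity in melanocytes, had 1582, 1882 and 1636 normalized counts under shlacZ, 1537 and 1433 under sh4, and 2203 and 1619 under sh8. Both sh4 libraries of SOX5 lay below all others too, but its differences did not pass (sh4 -0.19, 95% interval -0.53 to 0.14, and sh8 0.16, 95% interval -0.18 to 0.49). The sh8 value changed sign without the first sh8 library (-0.07).

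PAX3, which acts with SOX10 at the MITF promoter, had normalized counts of 1643, 1909 and 1746 under shlacZ, 1939 and 1858 under sh4, and 2519 and 2444 under sh8. Both sh8 libraries lay above all others, at 1.40 times the shlacZ mean (log2 fold change 0.49 ± 0.11 SE, 95% interval 0.24 to 0.75, adjusted p = 0.0512), just outside the threshold. Without the first shlacZ library this difference passed (0.44, adjusted p = 0.0338). The sh4 difference was 0.11 (95% interval -0.15 to 0.36). TFAP2A, an AP-2 factor of neural crest and melanocytes, had 5208, 5243 and 5113 normalized counts under shlacZ, 3608 and 2991 under sh4, and 5680 and 5056 under sh8. Both sh4 libraries lay below all others, at 63.6% of the shlacZ mean (log2 fold change -0.66 ± 0.12 SE, adjusted p = 0.00416). The fall missed the threshold without the second sh4 library (-0.52, adjusted p = 0.053), and the sh8 difference was 0.05 (95% interval -0.22 to 0.31), with the opposite sign without the first sh8 library (-0.04). The antisense gene TFAP2A-AS1, which overlaps 7107 bases of TFAP2A, had 107 to 128 normalized counts under shlacZ, 73.4 and 67.2 under sh4, and 161 and 112 under sh8.

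The hairpins were also compared with each other, which tests directly whether a factor differed between them. MITF (log2 fold change of sh4 against sh8 -0.59 ± 0.15 SE, adjusted p = 0.0415), SOX10 (-0.81 ± 0.17, adjusted p = 0.02) and TFAP2A (-0.71 ± 0.13, adjusted p = 0.0124) were lower under sh4. These were 3 of the 7 factors, 0 of them over the fold limit, where 7% of all genes tested passed (3.67% higher, 3.33% lower and 3.19% also over the fold limit). GRASLND itself did not pass in this comparison (-0.34, 95% interval -0.84 to 0.16), and its sh4 and sh8 libraries overlapped. The interval for TFEB was -1.27 to 0.06, that for TFE3 0.08 to 0.98 and that for PAX3 -0.66 to -0.11, and none of these passed (adjusted p = 0.269, 0.154 and 0.0957). For MITF the difference was lost without the second shlacZ library and without any 1 of the 4 knockdown libraries (adjusted p of 0.0674 to 0.241). For SOX10 it was lost without the second sh4 library (0.175) and without the first (0.0602) or the second sh8 library (0.142), and for TFAP2A without the second sh4 library (0.12) or the first sh8 library (0.115). For PAX3 it passed without the first shlacZ library (-0.39, adjusted p = 0.0457).

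**Figure D3:**
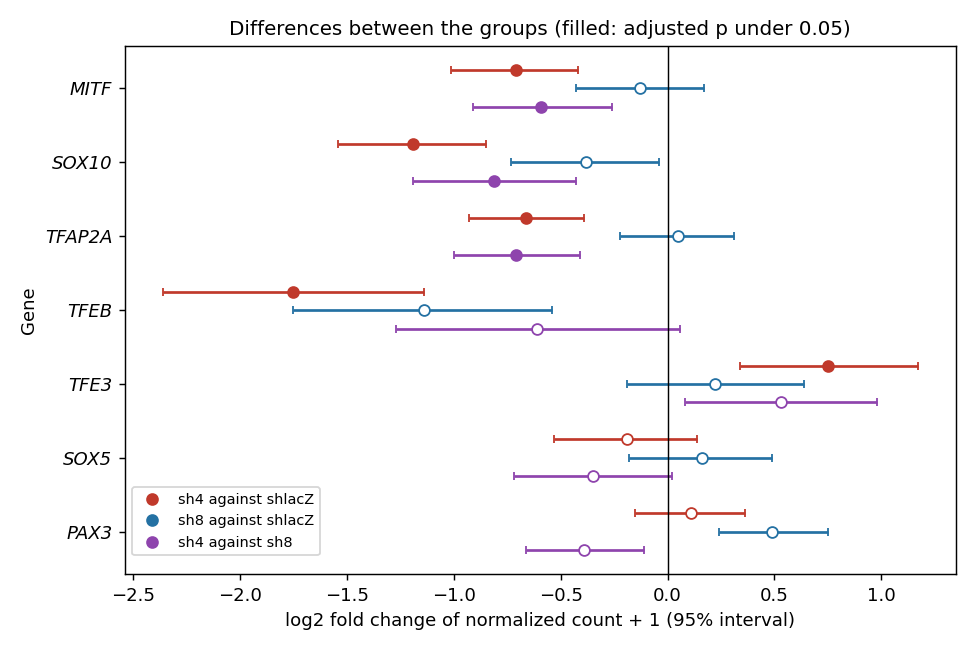
Log2 fold change with its 95% interval for the 7 measured factors in sh4 against shlacZ, sh8 against shlacZ and sh4 against sh8, from a single limma fit, with filled points for an adjusted p under 0.05. MITF, SOX10 and TFAP2A are filled in both comparisons that hold sh4, and no sh8 against shlacZ point is filled.

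With both hairpins pooled against shlacZ, as the study designed its test, TFEB alone of the 7 passed (log2 fold change -1.45 ± 0.27 SE, adjusted p = 0.0233), and it fell past the fold limit. Of all genes tested 4.61% passed (2.55% higher, 2.06% lower and 1.99% also over the fold limit). TFEB had 76.8, 49.3, 80.4 and 110 normalized counts in the knockdown libraries, against 168 to 248 under shlacZ. SOX10 (-0.79 ± 0.24 SE, adjusted p = 0.0854) and MITF (-0.42 ± 0.19 SE, adjusted p = 0.209) missed the threshold when pooled. The pooled TFEB fall missed the threshold without any 1 shlacZ library (adjusted p of 0.0519, 0.0791 and 0.0962) or the first sh4 library (0.0638), while SOX10 passed without the second sh8 library (-0.98, adjusted p = 0.0378).

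Relatives of the factors were followed by a list of 10 genes, of which 6 were tested. Under sh4, 2 rose (SOX4 and TFAP2C) and 1 fell (SOX6), where 10.5% of all genes rose and 11.9% fell. Under sh8, 0 rose with limma or limma-voom and 1 fell (SOX6, 0 with limma-voom), where 1.38% of all genes rose and 1.54% fell. With an unadjusted p under 0.05, 1 was higher and 1 lower under sh8, beside 2858 of all 15420 genes tested in either direction. SOX6, a close relative of SOX5, had 5275, 4364 and 3825 normalized counts under shlacZ, 2648 and 1808 under sh4, and 2535 and 2604 under sh8. Every knockdown library lay below every shlacZ library (sh4 -1.02, adjusted p = 0.00346, and sh8 -0.79, adjusted p = 0.0471), which was not so for SOX5. The sh8 call of SOX6 was lost without the second shlacZ library (0.122), the third (0.0523), the first sh8 library (0.222) or the second (0.242). TFAP2C, another AP-2 factor, stood opposite to TFAP2A under sh4, with 32.0, 27.2 and 17.4 normalized counts under shlacZ, 98.2 and 75.4 under sh4, and 48.8 and 53.7 under sh8 (sh4 1.76, adjusted p = 0.00465, and sh8 1.02, adjusted p = 0.132). The sh4 call of TFAP2C was lost without the first sh4 library (0.0626). SOX4, a factor of progenitor cells, rose under sh4 (0.72, adjusted p = 0.0032) to 2900 and 3225 normalized counts, from 1737 to 2091 under shlacZ, and stood at 1594 and 1595 under sh8. Without the first shlacZ library 1 relative rose under sh8.

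Of 24 listed regulators of MITF transcription and of the receptors and ligands upstream, 18 were tested. Under sh4, 3 rose (LEF1, ONECUT2 and STAT3) and 7 fell, where 10.5% of all genes rose and 11.9% fell, and the median log2 fold change was -0.09. Under sh8, 1 rose (KIT, named after its values were seen) and 1 fell (KITLG, the KIT ligand), with a median of 0.14. Over all genes, 1.38% rose and 1.54% fell under sh8. LEF1, the WNT pathway factor that binds the MITF promoter, had 1258, 2134 and 2166 normalized counts under shlacZ, 5029 and 7072 under sh4, and 3170 and 3243 under sh8. It stood higher in all knockdown libraries while MITF stood lower under sh4 (LEF1 sh4 1.73 ± 0.23 SE, adjusted p = 0.000939, and sh8 0.83 ± 0.23 SE, adjusted p = 0.0894). SNAI2, the zinc finger factor SLUG, fell under sh4 (-1.97 ± 0.14 SE, adjusted p = 8e-05) from 2663, 3327 and 2543 to 779 and 668 normalized counts, and stood at 3289 and 3013 under sh8 (0.16, 95% interval -0.16 to 0.48). ATF4, the stress response factor that represses MITF, fell under sh4 (-0.92, adjusted p = 0.000818), and EDNRB, the endothelin receptor of melanoblasts, did too (-1.62, adjusted p = 0.00011). The number of regulators that fell under sh4 was 3 without the second shlacZ library, and 4 without the third shlacZ library or either sh4 library, and the number that rose was 5 without the first shlacZ library and 1 without the second sh4 library. Under sh8, 2 rose and 2 fell without the first shlacZ library, and 0 passed without the second shlacZ library, the third or either sh8 library.

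MITF targets, among them pigment genes and genes of survival, growth and metabolism, were a list of 28 genes, all tested. Some targets are also in the list of regulators above, among them SNAI2, EDNRB and MC1R, which fell under sh4 and count in both lists. Under sh4, 17 fell and 1 rose (11.9% and 10.5% over all genes), with a median log2 fold change of -0.87, beside -0.01 over all genes. Under sh8, where MITF lay within the shlacZ range, 4 fell and 0 rose with limma and with limma-voom, with a median of -0.24. Over all genes, 1.54% fell and 1.38% rose with limma under sh8. At an unadjusted p under 0.05 there were 11 lower and 1 higher, beside 2858 of all 15420 genes tested in either direction. DCT, an enzyme of eumelanin synthesis, had 16036, 11423 and 9970 normalized counts under shlacZ, 1704 and 893 under sh4, and 6405 and 5805 under sh8. It stood at 10.4% of the shlacZ mean under sh4 (-3.31 ± 0.26 SE, adjusted p = 8.48e-05), and the sh8 libraries lay between the other groups (-1.0 ± 0.26 SE, adjusted p = 0.0734). TYRP1 (-2.04, adjusted p = 8e-05), another melanin enzyme, TRPM1 (-2.11, adjusted p = 0.000224), the melastatin gene, and MET (-1.73, adjusted p = 8e-05), a growth factor receptor, also fell under sh4. TYR, the tyrosinase gene and a classical MITF target, did not pass, with 8795, 8192 and 9420 normalized counts under shlacZ, 10288 and 9183 under sh4, and 9200 and 11314 under sh8 (sh4 0.15, 95% interval -0.15 to 0.44). TYR and HIF1A, the hypoxia factor that was the target to rise under sh4 (0.95, adjusted p = 0.00341), were named after their values were seen. Left-out libraries gave 12 to 18 falling targets under sh4. The 4 targets that fell under sh8 were MET, CDK2 (a cell cycle kinase), CEACAM1 (an adhesion molecule) and SLC7A5 (an amino acid transporter), and none of these is a pigment gene. CDK2 overlaps 6009 bases of the pigment gene PMEL on the opposite strand, and whether reads of the one were counted for the other was not tested. The number of falling targets under sh8 was 7 without the first shlacZ library, 1 without the second shlacZ library or the third, and 0 without either sh8 library.

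**Figure D4:**
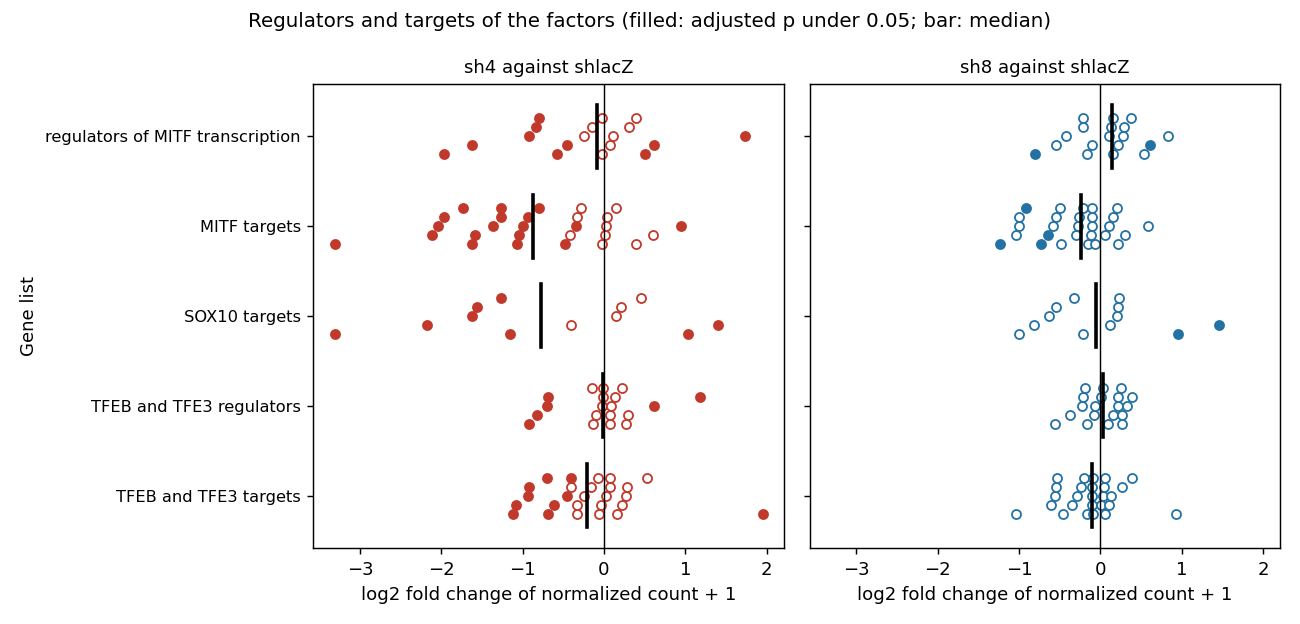
Log2 fold change of each tested gene of 5 lists in sh4 against shlacZ (left) and sh8 against shlacZ (right), with filled points for an adjusted p under 0.05 and a bar at the list median. Under sh4 the medians of MITF targets (-0.87) and SOX10 targets (-0.77) lie left of 0, whereas those of TFEB and TFE3 regulators (-0.01) and targets (-0.21) lie closer to it.

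Of 14 listed SOX10 targets, 12 were tested, and some are also MITF targets. Under sh4, 6 fell and 2 rose (11.9% and 10.5% over all genes), with a median log2 fold change of -0.77. Under sh8, 0 fell and 2 rose (1.54% and 1.38% over all genes), with a median of -0.05. At an unadjusted p under 0.05, 4 were lower and 2 higher under sh8, beside 2858 of all 15420 genes tested in either direction. With limma-voom 1 fell and 2 rose under sh8. FABP7, a fatty acid binding protein of neural crest derivatives, had 588, 328 and 433 normalized counts under shlacZ, 195 and 112 under sh4, and 249 and 318 under sh8 (sh4 -1.56, adjusted p = 0.00448, and sh8 -0.63, adjusted p = 0.275). As for SOX10 itself, its 3 groups did not overlap and sh8 lay between the others. The sh4 call was lost without the second sh4 library (0.0586). MEF2C, a factor of the MADS box family, went the other way, with 970, 1558 and 1135 normalized counts under shlacZ, 3016 and 3317 under sh4, and 3589 and 3010 under sh8. It rose under sh4 (1.40, adjusted p = 0.000884) and sh8 (1.46, adjusted p = 0.00374), and the sh8 call was lost without the first sh8 library (0.0566). CDH19, a cadherin named after its values were seen, was the other target that rose under either hairpin. Its sh4 call was lost without the first sh4 library (0.0706), and its sh8 call without the third shlacZ library or any 1 knockdown library (0.0667 to 0.209). The number of SOX10 targets that fell under sh8 was 2 without the first shlacZ library or either sh4 library.

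Upstream of TFEB and TFE3, 19 listed regulators were tested, of the mTORC1 branch and others. Under sh4, 2 rose (RRAGA and RRAGB) and 4 fell (RRAGD, LAMTOR3, FNIP2 and MCOLN1), which is 6 of 19 beside 22.5% of all genes, with a median log2 fold change of -0.01. Under sh8, 0 passed with limma or limma-voom (median 0.03). There, 3 had an unadjusted p under 0.05 (2 higher, 1 lower), as did 2858 of all 15420 genes tested. RRAGA and RRAGD encode Rag GTPases, which bring TFEB and mTORC1 to lysosomes. RRAGA had 532, 837 and 785 normalized counts under shlacZ, 1338 and 1896 under sh4, and 771 and 1011 under sh8 (sh4 1.18, adjusted p = 0.00527), and this call was lost without the second sh4 library (0.0708). RRAGD had 1532, 1608 and 1800 under shlacZ, 872 and 869 under sh4, and 1358 and 1566 under sh8 (sh4 -0.92, adjusted p = 0.00101). Without the second sh4 library 0 of these genes rose under sh4, 1 rose without any 1 other library except the first shlacZ library, and 2 fell under sh8 without the first shlacZ library.

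Of 27 listed TFEB and TFE3 targets, 26 were tested. Some are also in lists above, so that MCOLN1, RRAGD and FNIP2 count as falling upstream genes too, and PPARGC1A as a falling MITF target. Under sh4, where TFEB fell and TFE3 rose, 9 targets fell and 1 rose (11.9% and 10.5% over all genes), with a median log2 fold change of -0.21. Under sh8, 0 passed with limma or limma-voom, with a median of -0.10. In that comparison 7 were lower and 3 higher at an unadjusted p under 0.05, beside 2858 of all 15420 genes tested in either direction. CTSB, a lysosomal protease, was the target that rose, with 8361, 12844 and 16203 normalized counts under shlacZ, 38990 and 55038 under sh4, and 19229 and 27496 under sh8 (sh4 1.95, adjusted p = 0.00108, and sh8 0.93, adjusted p = 0.0977). All knockdown libraries lay above all shlacZ libraries. CLCN7, a lysosomal chloride exchanger, fell under sh4 (-1.08, adjusted p = 0.0023), as did CTSF, another cathepsin (-1.12, adjusted p = 0.00877), a call lost without the second sh4 library (0.0936). The number of targets that fell under sh4 was 4 without either sh4 library, and the number that rose was 2 without the first shlacZ library or either sh8 library. Under sh8, 5 fell without the first shlacZ library.

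Finally, the genes whose level followed MITF or SOX10 most closely over the 7 libraries were listed, by the root mean square difference of centred log2 levels among 12049 genes. For MITF these were ETS1 (0.046), R3HCC1L, GAS2L3, HERC1 and FMN1 (0.072). ETS1 had 6825, 6624 and 5799 normalized counts under shlacZ, 4083 and 3862 under sh4, and 6158 and 5315 under sh8. For SOX10 they were KIAA0930 (0.074), H4C4, MEX3A, PMEL (0.094) and CABLES1 (0.101). KIAA0930 had 1472, 1533 and 1737 normalized counts under shlacZ, 870 and 604 under sh4, and 1190 and 1278 under sh8. These values are a description of 7 libraries that share the same groups.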

How the data were processed

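RNA was depleted of ribosomal RNA, and stranded libraries were sequenced. Per the methods and labels, the authors trimmed adapters with Cutadapt, aligned reads to hg38 with STAR, quantified genes with Salmon and used DESeq2, and versions and annotation release are not given in the sources used here. They deposited 1 table of normalized counts, in which 100% of values were whole multiples of 1 read (tolerance of 0.05 reads). Depth was summed from these recovered reads. Scaling by size factors removes any change shared by most genes. The test was limma 3.58.1 (R 4.3.3, variance trend) on log2(normalized count + 1), where the added 1 understates changes of low genes. It covered genes with a mean of at least 10, with Benjamini-Hochberg adjustment over all of these. The limma test was tested on simulated data. Fits had 3 groups (hairpins apart) or 2 levels (pooled). Named genes were the members, GRASLND and up to 6 passing genes per list with the greatest change, except for a listed gene that is not reported here. The members, lists and tests were chosen with earlier results of these data known. Alternatives covered the pseudocount, minimum mean, scaling, variance trend, voom, replicate block and left-out libraries. Leaving out libraries for list counts was chosen after seeing the data. The replicate numbers were not taken to pair the samples. No columns of other samples were present.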

Additional observations from a re-analysis of the deposited data

Results flagged for a closer look

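The hairpins sh4 and sh8 gave different levels in a direct test (limma, adjusted p under 0.05) for 3 of the 7 factors and 13 of the 26 other genes named from the lists, where 7% of all genes did. The 26 were named for a large change under sh4 or sh8, so their count is no measure of the lists. Among the factors the log2 fold change of sh4 against sh8 was -0.59 for MITF, -0.81 for SOX10 and -0.71 for TFAP2A. Among relatives and regulators of the factors it was 0.94 for SOX4, -2.12 for SNAI2, -1.40 for EDNRB, -0.50 for ATF4, -0.74 for RRAGD, -1.09 for LAMTOR3 and -0.71 for FNIP2. Among target genes it was -2.30 for DCT, -1.62 for TRPM1, -1.54 for TYRP1, -1.0 for MET, -0.71 for PMEL and -1.18 for CTSF. SOX4 was the gene of this set with a higher level under sh4. The ATF4 call (adjusted p = 0.0499) was lost in 13 of 17 alternatives, that of MITF in 7, that of RRAGD in 5, those of SOX10, PMEL, CTSF and FNIP2 in 4 each, that of TFAP2A in 3 and that of SOX4 in 1, and the other calls passed in all 17.

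Among the 4 knockdown libraries, the lowest SOX6 value (1808 normalized counts, the second sh4 library) lay apart from the other values (2535 to 2648), with a gap of 0.865 of the whole range and past Dixon's 95% critical value. This was 1 of 33 genes examined in this way, and chance alone passes the limit in about 5% of genes. These 4 libraries hold both hairpins.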

How the results depend on the processing

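The number of factors that passed under sh4 stayed at 4 or 5 of 7 except without the second sh4 library (range 2 to 5 over left-out libraries). Under sh8 the count of 0 became 1 with a pseudocount of 10, a minimum mean of 50 or TMM scaling, in each case PAX3 (adjusted p = 0.0473, 0.0438 and 0.0465), and 2 with quantile normalization (PAX3, 0.0219, and TFEB, 0.0384), with a range of 0 to 2 over left-out libraries. Between the hairpins the count of 3 became 0 without the variance trend, with a range of 0 to 4 over left-out libraries, and MITF was also lost with quantile normalization (0.0936). In the pooled test the count of 1 became 0 without the variance trend (TFEB, 0.0586), with a range of 0 to 2 over left-out libraries. TFE3 under sh4 missed the threshold when the trend was dropped (0.0514). A block on replicate numbers (replicate block) took the pooled count to 0 (TFEB -1.41, adjusted p = 0.136) and changed no other call on a factor. Deviations of same-numbered libraries correlated between -0.08 and 0.34, and the numbers were not taken to pair samples. The 2 libraries of a hairpin deviate from their mean by exact opposites, so these correlations cannot settle whether samples were paired. Signs changed for results that did not pass, namely SOX5 under sh8 (-0.07 to 0.38 over left-out libraries), TFAP2A under sh8 (-0.04 to 0.13) and pooled SOX5 (0.05 with quantile normalization, -0.15 to 0.06 over left-out libraries). Of all alternatives run on single factors, 430 kept direction and side of the threshold, 24 lost a call, 9 gained one and 6 changed sign, and for the named list genes 733 kept it, 158 lost a call and 0 changed sign. TMM scaling left the median of all genes within 0.01 of 0. The planned edgeR test of recovered reads was not run, because decimal commas kept the table from being declared as counts. With 2 libraries per hairpin, the lone library left after removing 1 was assumed to vary like the other groups.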

Other observations

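Beyond the factors, the list of 9 melanocyte markers (8 tested) had 5 genes that fell (11.9% over all genes) and 0 that rose under sh4, with a median of -1.43. Under sh8, 0 passed with limma and 1 fell with limma-voom, with a median of -0.53. There, 5 were lower and 1 higher at an unadjusted p under 0.05, beside 2858 of all 15420 genes tested in either direction. MLANA, a melanosome protein gene, had 8640, 7531 and 7690 normalized counts under shlacZ, 3330 and 2077 under sh4, and 5298 and 5291 under sh8 (sh4 -1.59 ± 0.18 SE, adjusted p = 0.000354). S100A1, a calcium binding protein gene chosen after its values were seen, differed between the hairpins (log2 fold change of sh4 against sh8 -1.78 ± 0.36 SE, adjusted p = 0.0168), with 173, 94.3 and 122 normalized counts under shlacZ, 85.8 and 53.7 under sh4, and 183 and 301 under sh8. The S100A1 call was lost without the second sh4 library (0.167) or the second sh8 library (0.125). S100B, its relative, did not pass in any comparison (sh4 0.45, adjusted p = 0.102).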
